A study of Mus musculus with 24 samples.

Results

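The genes described here are the semaphorins, plexins, neuropilins, ephrins and Eph receptors, which together form 2 of the large ligand and receptor systems of cell guidance. They were taken as every gene-level cluster whose platform annotation gives a single symbol of these families, which found 47 clusters of 46 genes among 23332 clusters in all. *Epha2* had 2 clusters and every other gene had 1. The mice were C57BL/6 and 1 month of age, the RNA was from cerebellum or skeletal muscle, and each of the 4 groups held 3 samples. The groups were *Usp15*-deficient cerebellum, wild-type cerebellum, *Usp15*-deficient skeletal muscle and wild-type skeletal muscle. USP15 is a deubiquitinating enzyme, and how the deficient line was made, and whether each sample came from a separate animal, are not stated in the labels or the paper. The p-values therefore measure the spread between these samples, which may be technical.

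Semaphorins signal through plexins, and the secreted class 3 semaphorins mostly need a neuropilin as co-receptor that holds ligand and plexin together. Ephrins are themselves bound to the membrane, ephrin-A through a lipid anchor and ephrin-B through a transmembrane segment, so that Eph receptors are activated where cells touch and the ephrin-bearing cell can signal in reverse. In the developing cerebellum these systems act on migrating granule neurons and on axon targeting, and in other tissues, muscle included, several of the same receptors pattern blood vessels and motor innervation.

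Each RNA sample was hybridised to 1 Affymetrix exon array, and the values are log2 signals as deposited. Differences are given ± their standard error with the adjusted p of limma, n = 3 arrays a group. A signal depends on the probes of its cluster, so levels were compared between arrays and never between genes. The median signal of an array was 6.09 to 6.17 in cerebellum and 5.41 to 5.51 in skeletal muscle, and the median difference of all clusters, cerebellum minus skeletal muscle, was 0.62 in both genotypes. Tissue differences are therefore given with this shift in view and also after each array was centred on its own median, which moved that median to -0.05 in both genotypes. The tissue labels fitted the marker genes: 7 of 7 granule neuron markers were higher in cerebellum and 5 of 5 measured fast-fibre markers were lower. The arrays of a tissue were not uniform. In muscle the median signal of 4 slow-fibre markers was 8.97 to 9.16 in the *Usp15*-deficient arrays but 5.34, 5.35 and 9.47 in wild-type replicates 1, 2 and 3. In cerebellum the choroid plexus gene *Ttr* had signals of 7.67, 12.25 and 11.52 in *Usp15*-deficient and 8.66, 10.66 and 12.20 in wild-type arrays, and the median of 4 choroid plexus markers was 5.62 to 7.31 in *Usp15*-deficient and 5.77 to 7.39 in wild-type arrays. The part of these cells in the results was not tested. The targeted gene, *Usp15*, had signals of 7.08, 6.99 and 7.19 in *Usp15*-deficient cerebellum against 7.63, 7.51 and 7.66 in wild-type cerebellum, and of 6.73, 6.81 and 6.86 in *Usp15*-deficient muscle against 8.43, 8.92 and 8.65 in wild-type muscle. It lay lower in every deficient array, with an unadjusted p of 0.00142 in cerebellum and 1.17e-05 in muscle. Over 23332 clusters its adjusted p was 0.996 in cerebellum and 0.273 in muscle (limma). In these bulk samples fewer cells of a type and less RNA per cell cannot be told apart.

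To show what the start regions of genes on both sides of the tissue comparison look like, 4 promoters are printed from RefSeq (build GRCm38.p6, plus strand), each from 200 bases before to 20 bases after the annotated gene start. *Sema3c* (chr5:17574616-17574835) and *Ephb4* (chr5:137349909-137350128) were lower in cerebellum than in skeletal muscle, and *Sema4g* (chr19:44989144-44989363) and *Plxnb1* (chr9:109095236-109095455) were higher. Capitals mark the letters GGGCGG or their reverse complement CCGCCC, the core of the GC box.
Sema3c: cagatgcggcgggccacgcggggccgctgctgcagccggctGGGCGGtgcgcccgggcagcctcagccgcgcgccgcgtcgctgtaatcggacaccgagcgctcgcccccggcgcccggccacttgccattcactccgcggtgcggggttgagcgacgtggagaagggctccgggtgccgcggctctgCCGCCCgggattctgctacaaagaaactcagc
Ephb4: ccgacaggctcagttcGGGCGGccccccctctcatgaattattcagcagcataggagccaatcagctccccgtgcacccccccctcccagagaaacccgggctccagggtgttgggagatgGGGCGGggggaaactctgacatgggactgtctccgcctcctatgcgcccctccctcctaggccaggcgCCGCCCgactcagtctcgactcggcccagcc
Sema4g: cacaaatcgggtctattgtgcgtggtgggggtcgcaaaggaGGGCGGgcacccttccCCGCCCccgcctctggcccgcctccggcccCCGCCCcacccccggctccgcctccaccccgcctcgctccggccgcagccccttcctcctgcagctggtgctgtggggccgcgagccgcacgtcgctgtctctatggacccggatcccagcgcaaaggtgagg
Plxnb1: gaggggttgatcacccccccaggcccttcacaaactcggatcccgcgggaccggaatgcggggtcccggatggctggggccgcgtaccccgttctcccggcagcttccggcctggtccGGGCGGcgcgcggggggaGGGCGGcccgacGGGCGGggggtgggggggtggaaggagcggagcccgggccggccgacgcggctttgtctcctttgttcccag
The *Sema3c* stretch held 2 such boxes and the other 3 stretches held 3 each. RefSeq windows of 300 bases, 250 before to 50 after the start, were at hand for 40 of the 46 genes, 52 windows in all, and those of *Efnb3*, *Sema6a*, *Plxna4*, *Plxna1*, *Sema3b* and *Sema3f* are not used here. Searched on both strands, GGGCGG occurred in 39 of the 52 windows (75%), against 35.7% of all 32851 windows. Genes lower in cerebellum held it in 5 of 6 windows and genes higher in cerebellum in 19 of 23, counting those called in both genotypes and under both scalings as set out below. *Epha2* was counted in neither set. It entered with cluster 6918159, of the larger wild-type difference, although its cluster 6918158 met that rule as lower. The median window of these families was 63.8% G and C, against 52.7% over all windows. The letters TATAAA were in 1 of the 52 windows (1.92%), against 13.6% of all, and the palindrome CAGCTG, an E-box, was in 7 (13.5%), against 16.3% of all. A match is a description of the letters and does not show that a factor binds there.

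Semaphorin, plexin, ephrin and Eph genes were found on both sides of the tissue comparison. In *Usp15*-deficient arrays 31 of the 47 clusters were called higher in cerebellum and 7 lower (adjusted p under 0.05), and in wild-type arrays 32 were higher, 7 were lower and 8 were not called. These counts must be read against all clusters, of which 57% were higher and 12.9% lower in *Usp15*-deficient arrays, and 54.6% were higher and 13.1% lower in wild-type arrays. With a difference of at least 1 log2 required as well, 25 of the 47 were higher and 5 lower in wild-type arrays, against 29% and 6.49% of all clusters. After median centring the split in wild-type arrays became 23 higher and 13 lower, against 20.4% and 28.9% of all clusters. The 7 lower clusters with deposited values and the 13 after centring are thus close to the share of all clusters. The most demanding reading, a call of the same sign in both genotypes with deposited and with centred values, left 22 higher and 7 lower, against 16.3% and 11.5% of all clusters. The median of the 47 differences in wild-type arrays was 1.04, or 0.37 after centring, against 0.62 and -0.05 over all clusters.

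**Figure D1:**
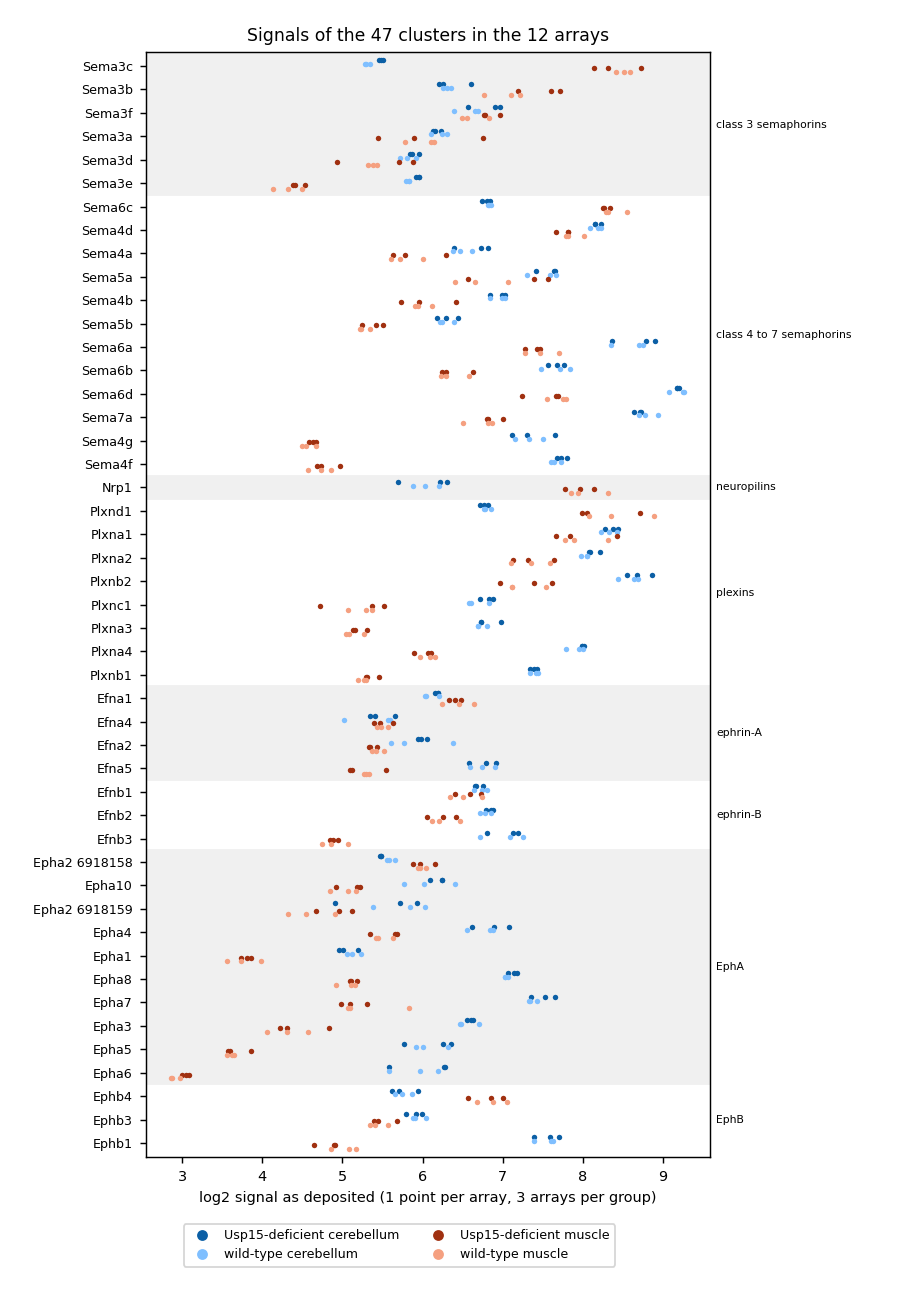
Log2 signal of each of the 47 clusters (rows, grouped by class) in the 12 arrays, 1 point per array, with blue for cerebellum and red for skeletal muscle and the darker shade for *Usp15*-deficient arrays. The *Sema3c* points of cerebellum lie between 5.28 and 5.51 and those of muscle between 8.14 and 8.73, and within a tissue the 2 genotypes lie close together for most clusters.

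All 47 differences had the same sign in both genotypes, and 36 were called in both. A further 2 were called in *Usp15*-deficient arrays only and 3 in wild-type arrays only, and 6 in neither. The difference of a gene in one genotype lay within 0.25 of that in the other for 41 clusters, with a median gap of 0.09 and a largest gap of 0.55 for *Epha2* cluster 6918159. Most of all 23332 clusters were called as well, 16303 in *Usp15*-deficient and 15786 in wild-type arrays. The differences of the 2 genotypes were also correlated over all clusters (Pearson r of 0.962, against 0.992 for the 47). Such agreement was therefore not particular to these families. The share of all clusters called in both genotypes, or within 0.25, was not counted.

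**Figure D2:**
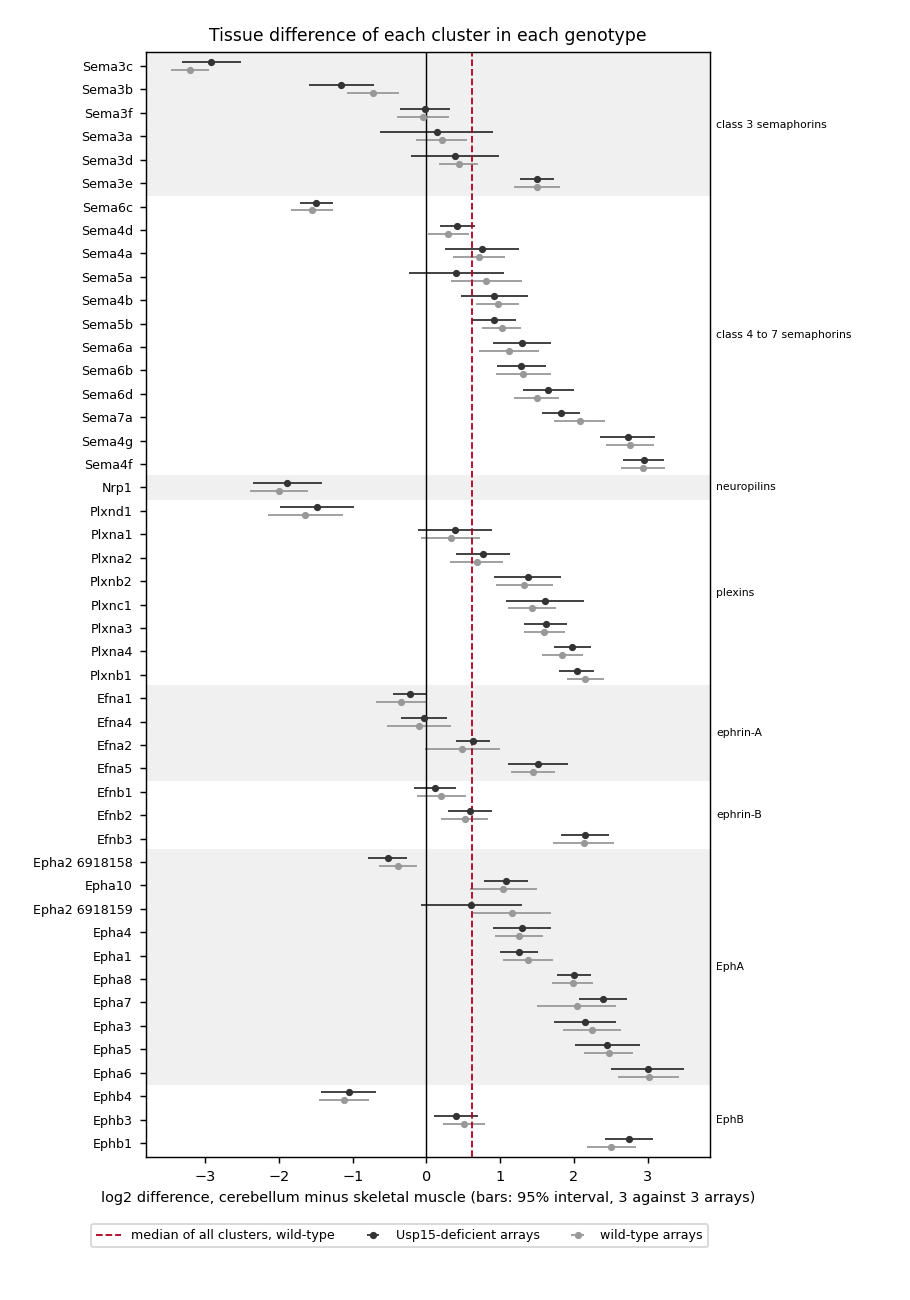
Log2 difference, cerebellum minus skeletal muscle, for each cluster in *Usp15*-deficient (dark, upper) and wild-type (grey, lower) arrays, with 95% intervals from 3 against 3 arrays. The dashed line marks the median of all clusters in wild-type arrays, 0.62, and the differences run from -3.20 for *Sema3c* to 3.01 for *Epha6* in wild-type arrays.

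The secreted class 3 semaphorins spread widest to the muscle side. *Sema3c*, known for guiding cells of the cardiac outflow tract and vessels, had signals of 5.48, 5.51 and 5.45 in Usp15-deficient cerebellum and 5.35, 5.30 and 5.28 in wild-type cerebellum, against 8.14, 8.31 and 8.73 in Usp15-deficient muscle and 8.42, 8.59 and 8.51 in wild-type muscle. The tissues did not overlap. The difference was -2.92 ± 0.17 (adjusted p = 2.55e-05) in Usp15-deficient and -3.20 ± 0.11 (adjusted p = 2.01e-06) in wild-type arrays, or 7.55-fold lower in cerebellum in the deficient arrays. *Sema3b* had signals of 6.20, 6.60 and 6.25 in Usp15-deficient cerebellum and 6.26, 6.30 and 6.35 in wild-type cerebellum, against 7.19, 7.60 and 7.72 in Usp15-deficient muscle and 7.10, 7.21 and 6.76 in wild-type muscle. Again no array overlapped between the tissues. Its difference was -1.15 ± 0.18 (adjusted p = 0.00183) in Usp15-deficient and -0.72 ± 0.15 (adjusted p = 0.00479) in wild-type arrays. *Sema3e*, the class 3 member that can bind *Plxnd1* without a neuropilin, ran the other way, with signals of 5.95, 5.96 and 5.92 in Usp15-deficient cerebellum and 5.83, 5.79 and 5.83 in wild-type cerebellum, against 4.38, 4.41 and 4.53 in Usp15-deficient muscle and 4.32, 4.50 and 4.14 in wild-type muscle. It differed by 1.5 ± 0.10 (adjusted p = 4.21e-05) in Usp15-deficient and 1.5 ± 0.13 (adjusted p = 0.000127) in wild-type arrays. *Sema3a*, the classical collapsing factor of growth cones, did not pass, with 0.14 ± 0.32 (adjusted p = 0.716) in Usp15-deficient and 0.20 ± 0.14 (adjusted p = 0.237) in wild-type arrays, although it passed in *Usp15*-deficient arrays without muscle replicate 3 (0.50, adjusted p = 0.041). *Sema3d* passed in wild-type arrays only, at 0.44 ± 0.11 (adjusted p = 0.0131). It lost the call without wild-type cerebellum replicate 2 (0.38, adjusted p = 0.0537). In wild-type arrays *Sema3a* was called lower after centring (-0.47, adjusted p = 0.0217) and with quantile normalization (-0.40, adjusted p = 0.0267), but not in *Usp15*-deficient arrays (-0.53, adjusted p = 0.192 and -0.47, adjusted p = 0.198). The sign of *Sema3d* turned when the wild-type arrays were centred, to -0.24 (adjusted p = 0.127). *Sema3f* differed by less than its error with deposited values (-0.02 ± 0.14 (adjusted p = 0.909) in Usp15-deficient and -0.05 ± 0.15 (adjusted p = 0.795) in wild-type arrays). It was called lower in both genotypes once centred, at -0.69 (adjusted p = 0.00633) in *Usp15*-deficient and -0.72 (adjusted p = 0.00435) in wild-type arrays. In RefSeq *Sema3d* and *Sema3a* are adjacent coding genes on chromosome 5, with 3 coding genes between *Sema3a* and *Sema3e*, and *Sema3b* and *Sema3f* lie on chromosome 9 with 3 coding genes between them. Of each group of neighbours a single gene was called under both scalings, *Sema3e* as higher and *Sema3b* as lower.

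Of the 12 membrane-bound class 4 to 7 semaphorins, 10 were called higher in cerebellum in each genotype and 1, *Sema6c*, lower, where 57% of all clusters were higher and 12.9% lower in *Usp15*-deficient arrays, and 54.6% and 13.1% in wild-type arrays. After centring, 7 were higher and 2 lower in wild-type arrays, where 20.4% of all clusters were higher and 28.9% lower. *Sema4f* had signals of 7.80, 7.68 and 7.72 in Usp15-deficient cerebellum and 7.64, 7.60 and 7.73 in wild-type cerebellum, against 4.97, 4.68 and 4.73 in Usp15-deficient muscle and 4.74, 4.86 and 4.57 in wild-type muscle. *Sema4g* had signals of 7.65, 7.12 and 7.30 in Usp15-deficient cerebellum and 7.51, 7.15 and 7.32 in wild-type cerebellum, against 4.58, 4.68 and 4.63 in Usp15-deficient muscle and 4.67, 4.49 and 4.54 in wild-type muscle. Both are transmembrane semaphorins, and in each the lowest cerebellar array lay more than 2 log2 units above the highest muscle array. The difference of *Sema4f* was 2.94 ± 0.12 (adjusted p = 5.69e-06) in Usp15-deficient and 2.94 ± 0.12 (adjusted p = 4.9e-06) in wild-type arrays, and that of *Sema4g* was 2.73 ± 0.15 (adjusted p = 2.46e-05) in Usp15-deficient and 2.76 ± 0.13 (adjusted p = 9.85e-06) in wild-type arrays. *Sema7a*, the only semaphorin held by a lipid anchor, had signals of 8.73, 8.64 and 8.72 in Usp15-deficient cerebellum and 8.71, 8.78 and 8.94 in wild-type cerebellum, against 7.0, 6.82 and 6.80 in Usp15-deficient muscle and 6.50, 6.82 and 6.87 in wild-type muscle. Its difference was 1.82 ± 0.10 (adjusted p = 2.7e-05) in Usp15-deficient and 2.08 ± 0.14 (adjusted p = 4.75e-05) in wild-type arrays. *Sema6d*, *Sema6b* and *Sema6a*, transmembrane ligands of A-type plexins, were also higher, by 1.65, 1.29 and 1.29 in *Usp15*-deficient arrays and 1.49, 1.31 and 1.12 in wild-type arrays, and kept the call after centring. *Sema5b*, *Sema4b*, *Sema5a* and *Sema4a* lay between 0.40 and 0.92 in *Usp15*-deficient arrays and between 0.71 and 1.02 in wild-type arrays, and none of them was called in both genotypes under both scalings. With deposited values *Sema5a* was called in wild-type arrays only. In *Usp15*-deficient arrays its tissues overlapped, with 0.40 ± 0.27 (adjusted p = 0.215). *Sema4a* in *Usp15*-deficient arrays also lost its call without cerebellum replicate 2 or 3 or muscle replicate 1 or 3 (0.62 to 0.71, adjusted p from 0.0501 to 0.0569). *Sema6c*, a class 6 relative of *Sema6a*, had signals of 6.80, 6.75 and 6.84 in Usp15-deficient cerebellum and 6.83, 6.85 and 6.81 in wild-type cerebellum, against 8.34, 8.27 and 8.25 in Usp15-deficient muscle and 8.32, 8.55 and 8.29 in wild-type muscle. Here the muscle arrays were the bright ones, with no overlap. The difference was -1.49 ± 0.09 (adjusted p = 3.88e-05) in Usp15-deficient and -1.55 ± 0.12 (adjusted p = 7.45e-05) in wild-type arrays. *Sema4d* was called in *Usp15*-deficient arrays only, at 0.42 ± 0.10 (adjusted p = 0.00925) against 0.30 ± 0.12 (adjusted p = 0.0581) in wild-type arrays. In a fit of all 12 arrays *Sema4d* was called in wild-type arrays as well (adjusted p = 0.0161). It passed in wild-type arrays without muscle replicate 2 (0.37, adjusted p = 0.0483), and turned its sign after centring, to -0.25 (adjusted p = 0.0839) in *Usp15*-deficient and -0.37 in wild-type arrays, where it was then called lower (adjusted p = 0.0299). With quantile normalization it stayed positive and was not called, at 0.21 (adjusted p = 0.149) in *Usp15*-deficient and 0.16 (adjusted p = 0.245) in wild-type arrays.

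Among the receptors of semaphorins, 6 of 8 plexins were called higher in cerebellum in each genotype, where 57% of all clusters were higher in *Usp15*-deficient and 54.6% in wild-type arrays, and *Plxnd1* was called lower. After centring, 5 plexins were higher and 1 lower in wild-type arrays, beside 20.4% and 28.9% of all clusters. *Plxnb1*, a receptor of *Sema4d*, had signals of 7.34, 7.40 and 7.43 in Usp15-deficient cerebellum and 7.34, 7.42 and 7.44 in wild-type cerebellum, against 5.30, 5.45 and 5.31 in Usp15-deficient muscle and 5.29, 5.19 and 5.26 in wild-type muscle. Its arrays did not overlap between the tissues and varied little within them. The difference was 2.03 ± 0.10 (adjusted p = 1.35e-05) in Usp15-deficient and 2.15 ± 0.11 (adjusted p = 1.02e-05) in wild-type arrays. *Plxna4*, which relays *Sema3a* in sensory and sympathetic axons, had signals of 7.98, 7.99 and 8.01 in Usp15-deficient cerebellum and 7.79, 8.0 and 7.96 in wild-type cerebellum, against 6.07, 5.89 and 6.10 in Usp15-deficient muscle and 6.10, 6.15 and 5.97 in wild-type muscle. The difference was 1.98 ± 0.10 (adjusted p = 1.79e-05) in Usp15-deficient and 1.84 ± 0.12 (adjusted p = 3.46e-05) in wild-type arrays. *Plxna3*, another *Sema3* receptor of the A class, differed by 1.61 ± 0.12 (adjusted p = 7.54e-05) in Usp15-deficient and 1.60 ± 0.12 (adjusted p = 5.94e-05) in wild-type arrays. *Plxnb2*, which acts in cerebellar granule cell precursors, was higher by 1.37 in *Usp15*-deficient and 1.33 in wild-type arrays, and *Plxnc1*, the receptor of *Sema7a*, by 1.61 in *Usp15*-deficient and 1.43 in wild-type arrays. *Plxna2* (0.77 in *Usp15*-deficient and 0.68 in wild-type arrays) was at 0.10 and 0.01 after centring and lost the call, but kept it with quantile normalization, at 0.51 (adjusted p = 0.0271) in *Usp15*-deficient and 0.47 (adjusted p = 0.0365) in wild-type arrays. *Plxna1* did not pass in either genotype with deposited values. Without skeletal muscle replicate 3 of either genotype *Plxna1* did pass, at 0.61 (adjusted p = 0.00799) in *Usp15*-deficient and 0.49 (adjusted p = 0.0232) in wild-type arrays.

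*Plxnd1* and *Nrp1*, both known for roles in endothelial cells, were the receptors on the muscle side. *Plxnd1* had signals of 6.77, 6.81 and 6.72 in Usp15-deficient cerebellum and 6.76, 6.77 and 6.85 in wild-type cerebellum, against 8.05, 7.99 and 8.72 in Usp15-deficient muscle and 8.35, 8.07 and 8.89 in wild-type muscle. *Nrp1*, co-receptor of class 3 semaphorins and of vascular endothelial growth factor, had signals of 5.69, 6.31 and 6.22 in Usp15-deficient cerebellum and 5.88, 6.20 and 6.03 in wild-type cerebellum, against 7.78, 7.97 and 8.14 in Usp15-deficient muscle and 7.95, 7.85 and 8.31 in wild-type muscle. For both genes every muscle array was brighter than every cerebellar array. The differences were -1.48 ± 0.21 (adjusted p = 0.00104) in Usp15-deficient and -1.64 ± 0.21 (adjusted p = 0.000711) in wild-type arrays for *Plxnd1*, and -1.89 ± 0.20 (adjusted p = 0.000308) in Usp15-deficient and -2.0 ± 0.17 (adjusted p = 0.000107) in wild-type arrays for *Nrp1*. The list of 7 endothelial markers moved in the same direction, with 5 lower in cerebellum in both genotypes and 1 higher in *Usp15*-deficient arrays. Its median difference was -1.27 in wild-type arrays. Its array medians were 6.23 to 6.45 in *Usp15*-deficient and 6.24 to 6.49 in wild-type cerebellum, against 7.44 to 7.67 in *Usp15*-deficient and 7.18 to 7.83 in wild-type muscle. *Cdh5*, the cadherin of endothelial junctions, differed by -2.97 and *Cldn5*, a tight junction gene of brain endothelium, by 0.98 (adjusted p = 0.0519) in wild-type arrays. The 5 fibroblast markers were all lower in cerebellum, with a median of -3.86. The part of vessels or connective tissue in the differences of *Sema3c*, *Nrp1*, *Plxnd1* and *Ephb4* was not tested.

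Known partners did not always sit on the same side. *Sema3e* was higher in cerebellum and its receptor *Plxnd1* lower. *Sema7a* and *Plxnc1* were both higher in cerebellum, and so were *Sema6a* and its receptor *Plxna4*, while the call of *Plxna2*, a receptor of *Sema6a* in granule cells, was lost after centring and kept with quantile normalization. *Sema3a* itself did not pass with deposited values, whereas its co-receptor *Nrp1* was lower and the plexins *Plxna3* and *Plxna4* were higher. *Nrp2*, the co-receptor of *Sema3f*, shares its cluster with another gene and is not analysed here.

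Of the 4 ephrin-A and 3 ephrin-B genes, *Efna5* and *Efnb3* were higher in cerebellum in both genotypes under both scalings, and none was lower with deposited values. *Efnb3*, a midline repellent for corticospinal axons, had signals of 6.80, 7.13 and 7.19 in Usp15-deficient cerebellum and 6.72, 7.26 and 7.09 in wild-type cerebellum, against 4.94, 4.89 and 4.84 in Usp15-deficient muscle and 5.07, 4.86 and 4.75 in wild-type muscle. The lowest cerebellar array lay above the highest muscle array. The difference was 2.15 ± 0.13 (adjusted p = 3.63e-05) in Usp15-deficient and 2.13 ± 0.17 (adjusted p = 0.000104) in wild-type arrays. *Efna5*, which sets up topographic maps of axons, had signals of 6.58, 6.92 and 6.80 in Usp15-deficient cerebellum and 6.59, 6.74 and 6.91 in wild-type cerebellum, against 5.09, 5.55 and 5.12 in Usp15-deficient muscle and 5.27, 5.34 and 5.29 in wild-type muscle, again without overlap. The difference was 1.51 ± 0.17 (adjusted p = 0.000398) in Usp15-deficient and 1.45 ± 0.12 (adjusted p = 0.000122) in wild-type arrays. *Efnb2*, the arterial partner of *Ephb4*, was 0.59 and 0.52 higher in *Usp15*-deficient and wild-type arrays, which is close to the shift of all clusters, and -0.08 and -0.15 after centring. *Efna2* was called in *Usp15*-deficient arrays only (0.63 ± 0.10 (adjusted p = 0.00155), against 0.49 ± 0.21 (adjusted p = 0.081) in wild-type arrays) and passed in wild-type arrays without cerebellum replicate 1 (0.64, adjusted p = 0.0467). *Efna1* and *Efna4*, which lie on chromosome 3 with 1 coding gene between them, did not pass in either genotype with deposited values. Both clusters were called lower in both genotypes after centring, with differences of -0.89 and -0.70 in *Usp15*-deficient arrays and of -1.02 and -0.77 in wild-type arrays. The exon level, described below, went the other way for *Efna4* with deposited values. Of its 5 probe sets 3 were called higher in cerebellum and 0 lower in wild-type arrays, against 35.4% and 13.2% of all probe sets. Their median difference was 0.87 in *Usp15*-deficient and 0.66 in wild-type arrays, against 0.48 and 0.47 over all probe sets. No direction is given for *Efna4* as a gene. *Efna1* also passed in wild-type arrays without muscle replicate 1 (-0.45, adjusted p = 0.0289). *Efnb1* did not pass in either genotype with deposited values (0.11 ± 0.12 (adjusted p = 0.422) in Usp15-deficient and 0.20 ± 0.14 (adjusted p = 0.23) in wild-type arrays). After centring it too was called lower in both, at -0.56 (adjusted p = 0.0123) in *Usp15*-deficient and -0.47 (adjusted p = 0.0402) in wild-type arrays, and with quantile normalization in *Usp15*-deficient arrays only (-0.41, adjusted p = 0.0444).

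Of the A-class Eph receptors, 8 of 10 clusters were called higher in cerebellum in *Usp15*-deficient and 9 of 10 in wild-type arrays, where 57% and 54.6% of all clusters were. After centring it was 7 of 10 in wild-type arrays, beside 20.4% of all clusters. *Epha6* had signals of 5.58, 6.27 and 6.28 in Usp15-deficient cerebellum and 5.58, 6.19 and 5.97 in wild-type cerebellum, against 3.0, 3.04 and 3.08 in Usp15-deficient muscle and 2.97, 2.88 and 2.86 in wild-type muscle. Every cerebellar array was more than 2 log2 units above every muscle array. The difference was 3.0 ± 0.20 (adjusted p = 5.55e-05) in Usp15-deficient and 3.01 ± 0.17 (adjusted p = 2.08e-05) in wild-type arrays, or 7.99-fold and 8.06-fold higher. *Epha5*, a receptor of *Efna5* in axon mapping, had signals of 5.77, 6.26 and 6.35 in Usp15-deficient cerebellum and 5.91, 6.32 and 6.0 in wild-type cerebellum, against 3.85, 3.57 and 3.59 in Usp15-deficient muscle and 3.65, 3.62 and 3.56 in wild-type muscle. It differed by 2.45 ± 0.18 (adjusted p = 8.22e-05) in Usp15-deficient and 2.47 ± 0.14 (adjusted p = 1.88e-05) in wild-type arrays. *Epha3* had signals of 6.55, 6.63 and 6.61 in Usp15-deficient cerebellum and 6.46, 6.48 and 6.71 in wild-type cerebellum, against 4.30, 4.22 and 4.83 in Usp15-deficient muscle and 4.05, 4.31 and 4.57 in wild-type muscle. The difference was 2.15 ± 0.18 (adjusted p = 0.000117) in Usp15-deficient and 2.24 ± 0.16 (adjusted p = 6.35e-05) in wild-type arrays. *Epha3* and *Epha6* lie on chromosome 16 with 4 coding genes between them. *Epha7*, *Epha8*, *Epha4* and *Epha1* were higher by 2.39, 2.0, 1.30 and 1.26 in *Usp15*-deficient arrays and by 2.04, 1.98, 1.25 and 1.38 in wild-type arrays, and kept the call after centring. *Epha7* had one wild-type muscle array at 5.84 where the other two were at 5.06 and 5.09. *Epha10*, a receptor without kinase activity, was called with deposited values in both genotypes (1.08 and 1.04). After centring it was called in *Usp15*-deficient arrays (0.41, adjusted p = 0.0379) but not in wild-type arrays (0.37, adjusted p = 0.163). Quantile normalization gave the same split, at 0.39 (adjusted p = 0.0369) in *Usp15*-deficient and 0.32 (adjusted p = 0.249) in wild-type arrays.

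The 2 clusters of *Epha2*, a receptor of epithelial cells, disagreed. Cluster 6918158 had signals of 5.48, 5.47 and 5.48 in Usp15-deficient cerebellum and 5.56, 5.58 and 5.66 in wild-type cerebellum, against 6.16, 5.88 and 5.97 in Usp15-deficient muscle and 5.94, 5.97 and 6.05 in wild-type muscle. Its difference was -0.53 ± 0.11 (adjusted p = 0.00563) in Usp15-deficient and -0.39 ± 0.11 (adjusted p = 0.0159) in wild-type arrays. Cluster 6918159 had signals of 5.93, 4.91 and 5.72 in Usp15-deficient cerebellum and 6.03, 5.84 and 5.39 in wild-type cerebellum, against 5.12, 4.66 and 4.95 in Usp15-deficient muscle and 4.90, 4.54 and 4.33 in wild-type muscle. It differed by 0.61 ± 0.28 (adjusted p = 0.0964) in Usp15-deficient and 1.16 ± 0.22 (adjusted p = 0.00373) in wild-type arrays. The call of the first in wild-type arrays was lost without cerebellum replicate 1 (-0.36, adjusted p = 0.0549) or replicate 2 (-0.38, adjusted p = 0.0558), and the second passed in *Usp15*-deficient arrays without cerebellum replicate 2, the dimmest array at 4.91 (0.91, adjusted p = 0.00869). No direction is given for *Epha2* as a gene.

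Of the 3 B-class Eph receptors, *Ephb1* was higher in cerebellum and *Ephb4* lower under both scalings. *Ephb1*, an axon guidance receptor of the optic chiasm, had signals of 7.39, 7.71 and 7.59 in Usp15-deficient cerebellum and 7.39, 7.60 and 7.63 in wild-type cerebellum, against 4.90, 4.65 and 4.91 in Usp15-deficient muscle and 5.09, 4.85 and 5.17 in wild-type muscle, with no overlap. It differed by 2.74 ± 0.13 (adjusted p = 1.37e-05) in Usp15-deficient and 2.51 ± 0.14 (adjusted p = 1.63e-05) in wild-type arrays. *Ephb4*, the receptor of venous endothelium, had signals of 5.62, 5.94 and 5.70 in Usp15-deficient cerebellum and 5.66, 5.87 and 5.74 in wild-type cerebellum, against 6.57, 6.86 and 7.01 in Usp15-deficient muscle and 6.68, 6.88 and 7.06 in wild-type muscle. Every muscle array was brighter than every cerebellar array. Its difference was -1.06 ± 0.15 (adjusted p = 0.0013) in Usp15-deficient and -1.12 ± 0.14 (adjusted p = 0.000614) in wild-type arrays, while its ligand *Efnb2* stayed near the shift of all clusters. *Ephb3* was called slightly higher (0.40 ± 0.12 (adjusted p = 0.0266) in Usp15-deficient and 0.50 ± 0.12 (adjusted p = 0.00918) in wild-type arrays), and its sign turned to -0.27 and -0.17 after centring. Leaving out any of 4 arrays ended the call of *Ephb3* in *Usp15*-deficient arrays (0.34 to 0.39, adjusted p from 0.0635 to 0.0888): cerebellum replicate 2 or 3, or muscle replicate 1 or 2. *Epha4*, which binds both classes of ephrin, was higher in cerebellum together with its ligands *Efnb3* and *Efna5*, and *Epha7* was higher together with *Efna5*.

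The exon level gave 1049 probe sets of the 46 genes, each standing for a part of an exon region. In wild-type arrays 593 were called higher in cerebellum, 143 lower and 313 were not called, against 35.4% higher and 13.2% lower among all 229581 probe sets. Their median difference was 0.97, against 0.47 over all. All 23 probe sets of *Sema3c* were called lower (-4.72 to -2.35), and all 22 of *Epha7*, all 34 of *Plxna4* and all 20 of *Ephb1* were called higher. Of the 37 genes with a single cluster that was called, 35 had no called probe set against the direction of the cluster. The exceptions were *Sema3b* with 2 and *Ephb3* with 1. Probe set 4323645 of *Sema3b* had signals of 6.24, 6.42 and 5.32 in Usp15-deficient cerebellum and 6.24, 5.65 and 6.29 in wild-type cerebellum, against 5.78, 5.55 and 6.04 in Usp15-deficient muscle and 5.14, 5.14 and 4.87 in wild-type muscle. In wild-type arrays it was higher in cerebellum by 1.01 (adjusted p = 0.0106), but in *Usp15*-deficient arrays the tissues overlapped and the difference was 0.21 (adjusted p = 0.601). Probe set 4842529 of *Sema3b* was higher in both, by 0.67 (adjusted p = 0.0363) in *Usp15*-deficient and 0.85 (adjusted p = 0.0351) in wild-type arrays. Probe set 4582755 of *Ephb3* differed by -0.48 (adjusted p = 0.289) in *Usp15*-deficient and -0.84 (adjusted p = 0.0309) in wild-type arrays.

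*Sema4d*, a ligand of *Plxnb1* also known as a lymphocyte antigen, was looked at in more detail after its values had been seen, because its cluster moved little while its probe sets parted. Of its 22 probe sets, 6 were called higher and 4 lower in *Usp15*-deficient arrays, against 39.1% and 13.4% of all probe sets, and the same 10 were called with the same sign in wild-type arrays. All 22 had the same sign in both genotypes. The highest, 5516520, had signals of 6.65, 5.47 and 5.53 in Usp15-deficient cerebellum and 6.63, 5.75 and 6.27 in wild-type cerebellum, against 2.05, 2.30 and 1.57 in Usp15-deficient muscle and 3.19, 1.95 and 2.17 in wild-type muscle. The next, 5237587, had signals of 8.45, 8.07 and 8.19 in Usp15-deficient cerebellum and 8.50, 8.09 and 8.34 in wild-type cerebellum, against 5.4, 5.41 and 4.50 in Usp15-deficient muscle and 5.70, 4.89 and 5.15 in wild-type muscle. Their differences were 3.91 ± 0.36 and 3.13 ± 0.29 in *Usp15*-deficient arrays and 3.78 ± 0.37 and 3.06 ± 0.27 in wild-type arrays, and the other four (4992793, 5340849, 5579525 and 5185164) were higher by 1.34 to 2.51 in *Usp15*-deficient and 1.86 to 2.55 in wild-type arrays. At the other end, 4371811 had signals of 8.13, 8.34 and 7.89 in Usp15-deficient cerebellum and 8.13, 8.32 and 7.80 in wild-type cerebellum, against 9.03, 9.07 and 8.78 in Usp15-deficient muscle and 9.01, 9.33 and 8.98 in wild-type muscle. The tissues did not overlap there either, and the 4 lower probe sets differed by -0.84 to -0.53 in *Usp15*-deficient and -1.02 to -0.69 in wild-type arrays. The remaining 12 lay between -0.44 and 0.22 in *Usp15*-deficient arrays and between -0.55 and 0.25 in wild-type arrays. Probe sets of a gene share their arrays, so a shift between arrays moves them all alike. The 6 stayed higher after quantile normalization or median centring, while the number called lower in wild-type arrays became 6 and 11. The exons in which these probe sets lie are not named in the files.

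**Figure D3:**
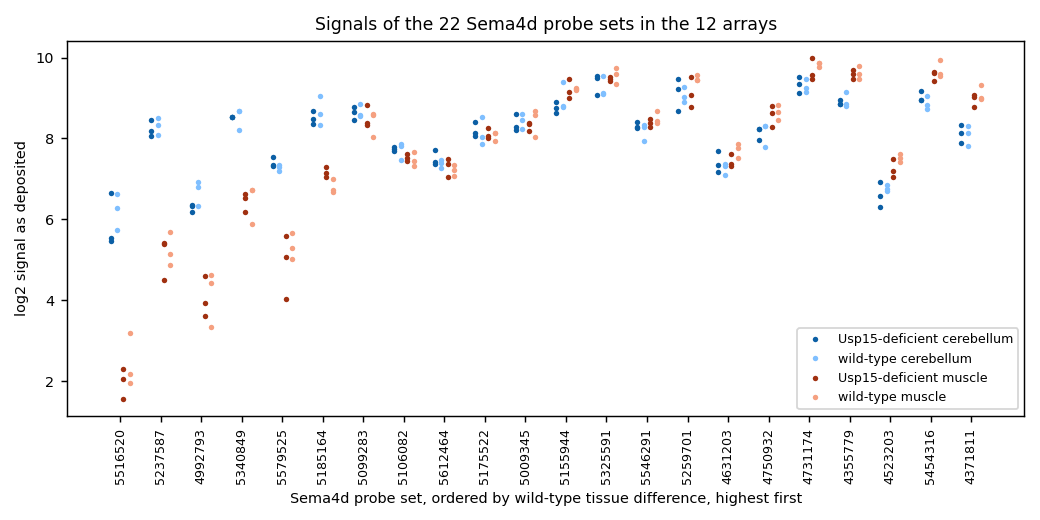
Log2 signal of the 22 probe sets of *Sema4d* in the 12 arrays, 1 point per array, ordered from the highest to the lowest wild-type tissue difference. In the first 6 probe sets the cerebellar points (blue) lie above the muscle points (red) in both genotypes, and in the last 4 the muscle points lie higher.

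None of the 47 clusters was called between *Usp15*-deficient and wild-type arrays in either tissue, as none of all clusters was (0% called in cerebellum, in muscle and for the difference of the genotype change between tissues). The smallest adjusted p was 0.996 in cerebellum and 1 in muscle (limma). At an unadjusted p under 0.05 there were 0 of 47 in cerebellum, against 3.54% of all clusters, and 1 of 47 in muscle, against 3.09%. The differences, *Usp15*-deficient minus wild-type, ran from -0.23 to 0.23 in cerebellum and from -0.22 to 0.48 in muscle. They were positive for 35 of 47 clusters in cerebellum and 29 of 47 in muscle. The median of the 47 was 0.05 and 0.03, where the median of all clusters was itself 0.04 and 0.01. The 95% interval lay within 1 log2 of 0 for 47 clusters in cerebellum and 46 in muscle. It lay within 0.5 log2 for 39 in cerebellum and 30 in muscle. Changes smaller than these intervals could not be seen with 3 arrays a group.

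The cluster of smallest p was *Sema3b* in muscle, with signals of 7.19, 7.60 and 7.72 in *Usp15*-deficient muscle against 7.10, 7.21 and 6.76 in wild-type muscle. The groups overlapped only by the lowest deficient array and the highest wild-type array, and the difference was 0.48 (95% interval 0.02 to 0.95), unadjusted p = 0.0447 and adjusted p = 1 (limma), moving over 0.35 to 0.64 when single arrays were left out. *Sema5a*, a semaphorin with thrombospondin repeats, showed 0.46 (95% interval -0.27 to 1.19) in muscle, with *Usp15*-deficient arrays at 6.56, 7.56 and 7.39 against wild-type arrays at 6.66, 6.40 and 7.06. It was the 1 cluster whose interval reached past 1 log2. *Epha2* cluster 6918159, *Sema3f* and *Epha6* followed on the higher side with 0.32, 0.21 and 0.14, and *Ephb1*, *Sema6d*, *Sema4d*, *Epha7* and *Sema6c* on the lower side with -0.22, -0.17, -0.11, -0.20 and -0.10. Markers of other cell types also differed between the muscle arrays. The array median of 3 measured Schwann cell markers was 6.94, 8.73 and 7.63 in *Usp15*-deficient muscle against 6.64, 6.66 and 6.85 in wild-type muscle, and the 3 were higher in *Usp15*-deficient muscle by a median of 0.93. Of the 3 measured genes of the neuromuscular junction 3 were higher (median 0.51). The 5 oligodendrocyte markers had a median of 0.41 and positive differences, but *Mobp* (0.07 ± 0.13) and *Mog* (0.01 ± 0.14) differed by less than their error. *Mbp*, another of the 5, is also on the Schwann cell list. The median over all clusters in muscle was 0.01. None of these markers was called. The array median of 4 adipocyte markers was 6.48 to 9.47 in *Usp15*-deficient and 6.98 to 8.23 in wild-type muscle. *Sema5a* was lowest in the same *Usp15*-deficient array as the Schwann cell markers and highest in the same one. The array medians of 5 fibroblast markers (8.72, 9.97 and 9.89) and of the adipocyte markers (6.48, 9.47 and 7.10) had that order too. So did *Alas2*, the 1 measured red blood cell marker (6.08, 7.31 and 7.25). In wild-type muscle *Sema5a* and the Schwann cell markers differed in order. The fibroblast markers (9.34, 9.17 and 10.18) and *Alas2* (6.27, 6.11 and 6.87) had the order of *Sema5a* there. An order of 3 arrays does not single out a cell type. The part of these cell types and of the slow fibres, which differed between the wild-type arrays as given above, was not tested.

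In cerebellum *Sema3c* had the smallest p, with 5.48, 5.51 and 5.45 in *Usp15*-deficient against 5.35, 5.30 and 5.28 in wild-type arrays. The groups did not overlap. The difference was 0.17 (95% interval -0.01 to 0.35), unadjusted p = 0.0595 and adjusted p = 0.996 (limma). *Sema3e* (0.12 (95% interval -0.05 to 0.30)), *Sema3f* (0.23 (95% interval -0.11 to 0.58)), *Epha7* (0.15 (95% interval -0.11 to 0.40)) and *Plxnc1* (0.14 (95% interval -0.11 to 0.39)) were next on the higher side. *Epha2* clusters 6918158 and 6918159, *Sema7a*, *Epha1* and *Sema6c* led the lower side with -0.12, -0.23, -0.11, -0.09 and -0.04. All 3 deficient arrays lay above all 3 wild-type arrays for *Sema3c*, *Sema3e* and *Plxna2* in cerebellum, against 5.85% of all clusters, and below them for *Epha2* cluster 6918158, against 3.05%. In muscle this was so for *Epha6* and *Plxnb1* on the higher side, against 3.38% of all clusters, and for 0 of 47 on the lower side, against 2.97%. No cluster was apart in both tissues. No cluster passed the threshold in the test of whether the genotype change differed between the tissues, and 0 of 47 passed an unadjusted p under 0.05 there.

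**Figure D4:**
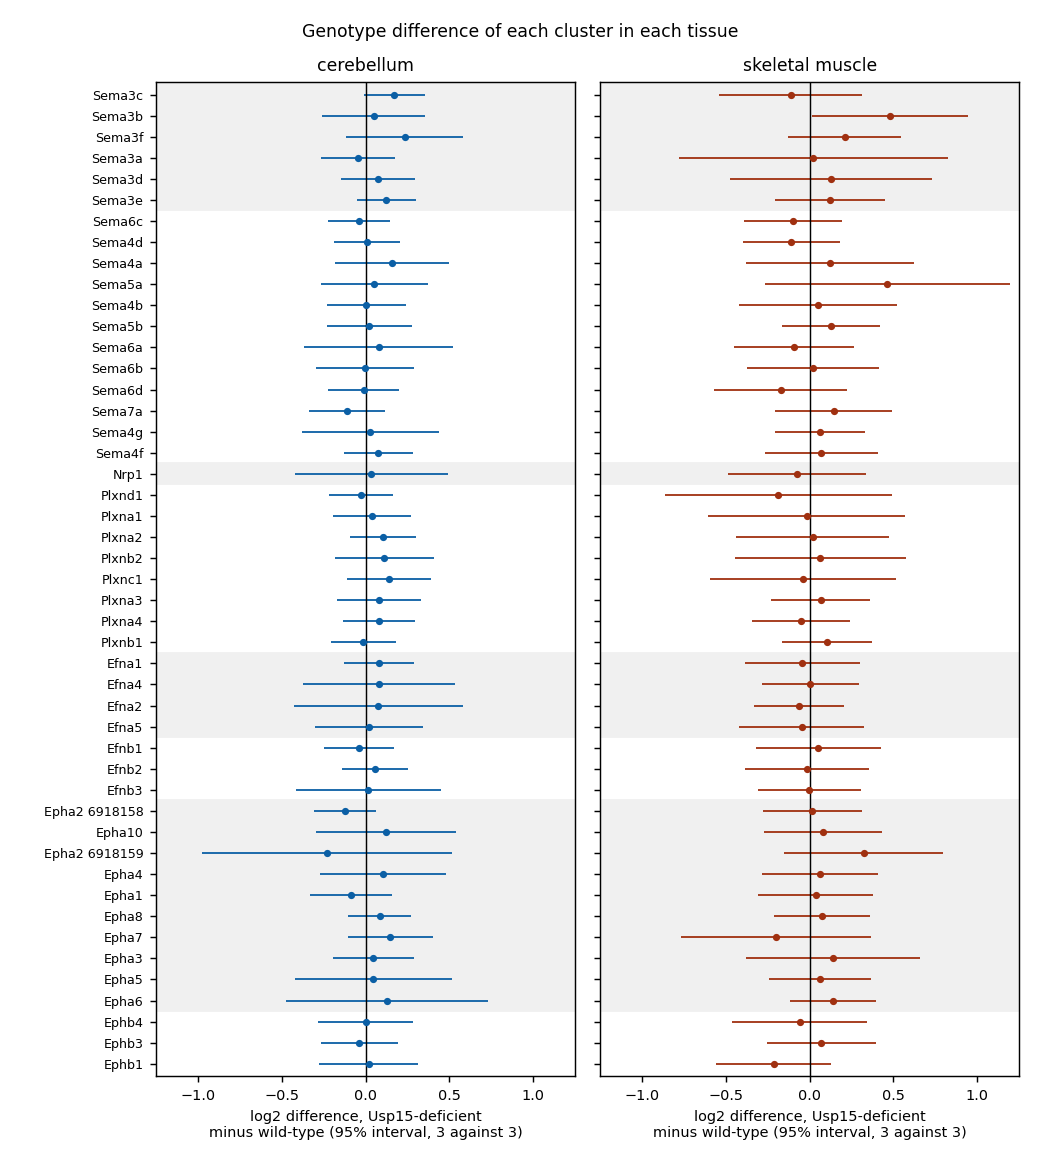
Log2 difference, *Usp15*-deficient minus wild-type, for each cluster in cerebellum (left) and skeletal muscle (right), with 95% intervals from 3 against 3 arrays. All but 1 of the intervals in either panel include 0, the exception being *Sema3b* in muscle at 0.48.

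At the exon level 0 of the 1049 probe sets were called for genotype in either tissue, where 0.000871% of all probe sets were called in cerebellum and 0.000871% in muscle, and 23 in cerebellum and 35 in muscle had an unadjusted p under 0.05 (limma), where 3.49% and 3.18% of all probe sets did.

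Partners and effectors of these receptors were called on both sides, in shares to be read against those of all clusters (57% higher and 12.9% lower in *Usp15*-deficient arrays, 54.6% and 13.1% in wild-type arrays, 20.4% and 28.9% in wild-type arrays after centring). Of 27 measured partners and effectors of semaphorins and plexins, 15 were higher and 6 lower in cerebellum in *Usp15*-deficient arrays and 14 and 6 in wild-type arrays, with a median of 0.33 in wild-type arrays, against 0.62 over all clusters. There were 10 higher and 14 lower in wild-type arrays after centring. On the cerebellar side were *Nrcam* (4.85) and *L1cam* (3.12), adhesion molecules that join neuropilin complexes. The collapsin response mediators *Crmp1* (3.14), *Dpysl4* (3.0), *Dpysl5* (1.88) and *Dpysl2* (1.87) were on that side too. The mediator *Dpysl3* was not called with deposited values, at -0.12 in *Usp15*-deficient and -0.40 in wild-type arrays. After centring it was called lower in wild-type arrays, at -1.07 with an adjusted p of 0.00481 (limma). On the muscle side were *Met* (-2.94), a receptor kinase that couples to B-type plexins, *Kdr* (-1.49), a receptor of vascular endothelial growth factor, and the small GTPases *Rap1a* (-1.49) and *Rras* (-1.44), substrates of plexin's GTPase-activating domain. Of 22 measured partners and effectors of Eph receptors, 18 were higher and 3 lower in *Usp15*-deficient arrays and 15 and 3 in wild-type arrays, with a median of 0.66. There were 8 higher and 5 lower after centring. *Chn2* (5.78) and *Chn1* (2.85), the chimaerins that switch off Rac below Eph receptors, and *Tiam1* (3.39), an activator of Rac, led that list, and *Grb10* (-2.26) and *Inppl1* (-1.36) were lowest. Values in brackets are wild-type differences that passed the threshold. The most alike group of other guidance cues, 19 netrin, slit and related genes, gave 14 higher and 1 lower in wild-type arrays, with a median of 1.17 or 0.50 after centring, beside 1.04 and 0.37 for the 47 clusters. No gene of these 3 lists was called for genotype in either tissue, where no cluster at all was called.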

How the data were processed

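Total RNA of the 12 samples was labelled with biotin and hybridised to Affymetrix mouse exon arrays. The authors deposited log2 signals at the gene level (23332 clusters) and the exon level (229581 probe sets) of the same arrays. The background correction, normalization, software and genome build are not stated in the sources at hand. The values entered lmFit and eBayes of limma 3.58.1 (R 4.3.3) as they stood (two-sided, 6 arrays a fit, Benjamini-Hochberg over all clusters or probe sets, threshold 0.05, intervals at 95 percent). The difference of the genotype change between tissues was tested in a fit of all 12 arrays. The fits were checked on simulated data.

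The genes and lists were chosen with earlier results of these data known. Members needed a single family symbol in the platform annotation, and all 47 clusters matched RefSeq (GRCm38.p6) by gene number, with equal symbols. *Ephb2* and *Ephb6* have 23 exon-level probe sets each but no cluster of their own, and *Nrp2*, *Efna3*, *Sema3g*, *Sema4c* and *Plxnb3* are not analysed here. Genes were named by rule: tissue differences of at least 1 log2 in wild-type arrays, the 5 higher and 5 lower of smallest p for each genotype comparison, genes apart in both tissues, known ligand and receptor pairs, and called probe sets opposite to their cluster. A further part of the rule, the brightest gene of each class, was not used because signals of different probes are not comparable. *Sema4d* was followed at the exon level after its values had been seen.

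Deviations of same-numbered arrays of the 2 genotypes were positively correlated in both tissues, to a varying degree. For numbers 1, 2 and 3 in cerebellum the correlations were 0.218, 0.203 and 0.103 with clusters. Probe sets gave 0.225, 0.194 and 0.0918 there. In muscle clusters gave 0.305, 0.0641 and 0.16, while probe sets gave 0.306, 0.0608 and 0.171. Between tissues the correlations with clusters were 0.101, -0.0654 and 0.0746 in wild-type arrays. In *Usp15*-deficient arrays they were 0.0486, -0.0365 and 0.0145. The replicate number as a block was an alternative. Other alternatives were a fit of 12 arrays, quantile normalization, median centring, an eBayes prior that is robust and trended (with statmod 1.5.0), removal of the dimmest 25 percent of features and leaving out each array. No 2 arrays held identical values.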

Additional observations from a re-analysis of the deposited data

How the results depend on the processing

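The scaling between arrays mattered most. The 7 clusters lower in cerebellum became 11 with quantile normalization and 11 with median centring in *Usp15*-deficient arrays, and 11 with quantile normalization and 13 with median centring in wild-type arrays. In *Usp15*-deficient arrays the sign turned with quantile normalization for *Efna2* (-0.0662), *Efnb1* (-0.41) and *Ephb3* (-0.29), and with median centring for *Efna2* (-0.0443), *Efnb1* (-0.56), *Efnb2* (-0.0762), *Ephb3* (-0.27) and *Sema4d* (-0.25). In wild-type arrays it turned with quantile normalization for *Ephb3* (-0.19), *Sema3a* (-0.40) and *Sema3d* (-0.27), and with median centring for *Efnb1* (-0.47), *Efnb2* (-0.15), *Ephb3* (-0.17), *Sema3a* (-0.47), *Sema3d* (-0.24) and *Sema4d* (-0.37). Both scalings remove the shift between the tissues by construction. A sign change of a value called under neither setting was not counted. Requiring a call in both genotypes and under both scalings, an alternative chosen after seeing the data, left 29 of the 39 clusters called in wild-type arrays. Leaving out single arrays gave 36 to 39 called clusters in *Usp15*-deficient arrays (29 to 32 higher, 7 lower) and 37 to 40 in wild-type arrays (31 to 33 higher, 6 to 8 lower), and 657 to 719 called probe sets, against 736 with all wild-type arrays. The fit of 12 arrays added wild-type tissue calls of *Efna1* (adjusted p = 0.0177), *Efna2* (adjusted p = 0.0245) and *Sema4d* (adjusted p = 0.0161). It lost that of *Sema3d* (adjusted p = 0.0717, limma). *Sema4d* was also called in wild-type arrays with the robust and trended prior (adjusted p = 0.0366) and without the dimmest 25 percent (adjusted p = 0.048). For genotype 0 clusters and 0 probe sets were called under every alternative that was run (limma). With the replicate number as a block the counts between tissues stayed at 38 in *Usp15*-deficient and 39 in wild-type arrays, with *Epha2* cluster 6918159 gained (adjusted p = 0.0287) and *Ephb3* lost (adjusted p = 0.0521) in *Usp15*-deficient arrays, and the genotype counts stayed at 0. Signal over background is not given by the deposited values, so that dim clusters could not be set apart from background.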

Other observations

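Among the 1049 probe sets, the smallest unadjusted p for genotype belonged in muscle to probe set 4733131 of *Ephb1*, with 3.53, 3.47 and 3.12 in *Usp15*-deficient against 4.22, 4.63 and 4.74 in wild-type muscle (-1.15, unadjusted p = 0.00139, adjusted p = 1, limma). In cerebellum it belonged to probe set 5385765 of *Nrp1*, with 5.04, 5.53 and 5.48 in *Usp15*-deficient against 3.91, 3.37 and 4.70 in wild-type cerebellum (1.36, unadjusted p = 0.00426, adjusted p = 1, limma). The arrays of the 2 genotypes did not overlap at either probe set, and the clusters of both genes differed by -0.22 for *Ephb1* in muscle and 0.03 for *Nrp1* in cerebellum.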
